A study of Mus musculus with 11 samples.

Results

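The genes described are 9 effector and regulatory genes of T cells and natural killer (NK) cells, Ifng, Tbx21, Il17a, Csf2, Il2ra, Foxp3, Gzma, Gzmb and Prf1, taken by name from the 26921 genes of the series. They were followed in Cd3-positive cells and in NK cells of C57BL/6 mouse brain cortex, from which myelin had been removed before capture on the 10x 3′ v2 system. Adult mice (7 to 11 weeks, 3 libraries, tissue of 6 mice pooled) and Aged mice (18 months, 2 libraries, tissue of 3 mice pooled) were untreated. EAE mice (7 to 11 weeks, females, 2 libraries, tissue of 3 mice pooled) had been immunised with a peptide of myelin oligodendrocyte glycoprotein in complete Freund's adjuvant, given pertussis toxin, and taken at the peak of experimental autoimmune encephalomyelitis, a paralytic disease driven by T cells. Juvenile mice (postnatal day 10, 4 libraries, tissue of 6 mice pooled), also untreated, are given for Csf2 and entered the fit over whole libraries. The study's methods give female mice as the default for all groups, and name females again for EAE. The Adult mice received neither adjuvant nor toxin, so disease, adjuvant and toxin cannot be told apart. The sources do not say whether the libraries of a group came from separate pools of mice, and all p-values measure the spread between libraries. The comparisons asked which of these genes differed in T and NK cells of the inflamed, the aged and the young cortex, and which were found in the same cells.

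T cells act through the cytokines they secrete and, when cytotoxic, through granules. Interferon gamma (Ifng) is the cytokine of T helper 1 (Th1), CD8 and NK cells and is switched on by the transcription factor T-bet (Tbx21), whereas interleukin 17A (Il17a) marks Th17 cells and many γδ T cells. GM-CSF (Csf2) acts on myeloid cells and is needed for EAE, Il2ra encodes the alpha chain (CD25), which completes the high-affinity IL-2 receptor, and Foxp3 is the defining transcription factor of regulatory T cells. Granzymes A and B (Gzma, Gzmb) are proteases of cytotoxic granules that enter the target cell through pores made by perforin (Prf1).

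Kept were cells in which over 500 but under 6000 genes and under 25% mitochondrial transcripts were found. A cell entered the T and NK gate with at least 3 unique molecular identifiers (UMIs, single counted transcripts) of 16 T and NK genes and more of them than of 25 genes of other lineages. It was Cd3-positive with at least 1 UMI of Cd3d, Cd3e or Cd3g, and NK with none of these and at least 2 UMIs of 8 NK receptor genes (the NK list). None of the 9 genes was used in the gates. Adult libraries 1 to 3 held 33, 30 and 30 Cd3-positive cells, Aged libraries 164 and 130, and EAE libraries 827 and 750. There were 24 NK cells in all in Adult, 22 in Aged and 90 in EAE libraries. Cd3-positive cells made up 0.771% to 1.04% of Adult, 2.74% to 3.22% of Aged and 9.26% to 9.94% of EAE cells. The groups did not overlap, and with 2 units a group the exact permutation test could not go below its two-sided p of 0.333. Cd3e was detected in 56.7% to 83.8% of Cd3-positive cells and the NK receptor Ncr1 in 56.8% to 80.0% of NK cells, whereas Trac, a constant gene of αβ T cells, was detected in 2.40% to 15.2% of Cd3-positive cells. Another such constant gene, Trbc2, was detected in 83.9% of Adult, 86.7% of Aged and 90.2% of EAE Cd3-positive cells. Detection thus differed by gene, for reasons not tested, and a zero for a single gene is a weak statement. Cd3e, Ncr1, Trac and Trbc2 are themselves gate genes, so their shares are partly set by the gate. Adult 2 and Adult 3 were the most alike pair in endothelial-like clusters (chi-square per degree of freedom 1.40, other pairs of 1 group 1.71 to 21.9) and were summed to 1 unit in tests. In Cd3-positive cells the pair was no closer (2.26) than the Aged (1.75) or EAE pair (2.05), and kept separate it changed no call of the 9 genes there. A test without Adult 1, or without an Aged or an EAE library, thus leaves that arm with 1 unit, which is assumed to vary like the units of the other groups, and a call gained that way has no replicate check in that arm. Levels are given as CPM, the UMIs of a gene per 1000000 UMIs of the same cells. Transcripts of the choroid plexus list summed to 45364 CPM in Cd3-positive cells of Adult 1 against 5894 to 16730 in the other Adult, Aged and EAE libraries. Those of the monocyte/macrophage list, 7 genes in the files, were highest in EAE, at 2744 and 2619 CPM against 732 and 907 in Aged and 1240 to 1501 in Adult Cd3-positive cells, with Gpnmb at 0 in each Aged and Adult library, Arg1 also in Adult 1, and none at 0 in EAE. In NK cells the same list summed to 1796 and 1333 CPM in EAE, 660 and 385 in Aged and 753 to 1233 in Adult libraries, and its part in the differences of the 9 genes was not tested. The neutrophil list, 7 genes, summed to 169 and 1183 CPM in Cd3-positive cells of EAE 1 and EAE 2, 212 and 308 in Aged and 0 to 22.6 in Adult libraries, with 5 and 6, 6 and 4, and 0 to 2 of its genes found and Ly6g at 0 in each of these libraries. In NK cells it summed to 159 and 167 CPM in EAE, 212 and 288 in Aged and 22.6 to 98.3 in Adult libraries, and its part was not tested either. In addition, 9 and 10 Cd3-positive cells of EAE 1 and EAE 2 were called doublets. A stricter alternative, named the gate of 5 UMIs below, asked for at least 5 UMIs of the 16 T and NK genes and 0 of the 25 genes of other lineages. It left 135 and 118 Cd3-positive cells in EAE, 25 and 8 in Aged and 0, 3 and 1 in Adult libraries. With at least 10 cells needed per unit, Aged 1 was then the only Aged unit.

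Over the summed EAE libraries at least 50% of the transcripts of each of the 9 genes lay in Cd3-positive cells. In the summed Adult libraries this held for Il17a alone. For Prf1 in EAE this was 9 of 18 UMIs, with 7 of 12 in EAE 1 but 2 of 6 in EAE 2. For Il17a in Adult it was 28 of 29 UMIs, all 28 in 1 cell. In EAE libraries Cd3-positive cells held 83.7% of the 2166 Ifng UMIs, 92.4% of the 119 Il17a UMIs, 86.3% of the 415 Csf2 UMIs and 80.6% of the 2591 Gzmb UMIs. Gzma, the most abundant of the 9 with 9858 UMIs, lay to 70.5% in Cd3-positive and to 22.2% in NK cells, although NK cells numbered only 90 against 1577. In Adult libraries the order was turned, with 65.9% of 886 Gzma UMIs in NK and 19.8% in Cd3-positive cells, and in Aged libraries 72.4% of 290 Gzma UMIs lay in NK cells. Apart from Foxp3 with its 1 UMI in Adult libraries, Il2ra transcripts were the most scattered, with 64.9% of 57 UMIs in Adult and 62.3% of 69 in Aged libraries outside the gate. B lineage-like clusters held 17 of these Il2ra UMIs in Adult and 10 in Aged libraries, and in EAE libraries 50 of 613 lay in monocyte/macrophage-like clusters.

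**Figure D1:**
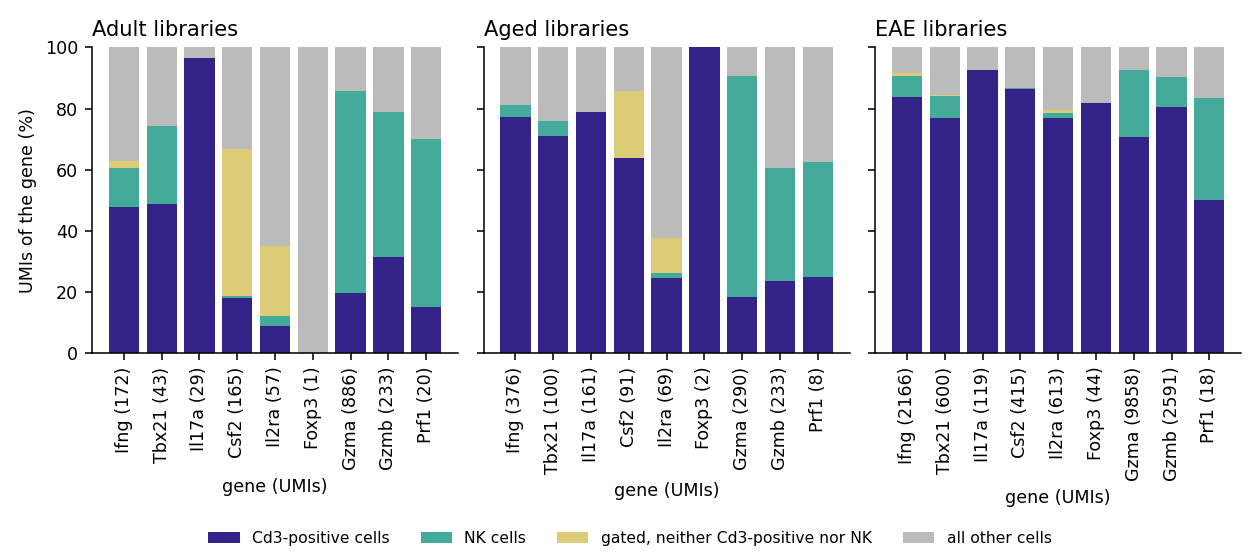
Percent of the UMIs of each gene (y axis) found in Cd3-positive cells, NK cells, gated cells that were neither, and all other cells, for the summed Adult, Aged and EAE libraries, with the number of UMIs of each gene in parentheses. In EAE, Cd3-positive cells held between 50% (Prf1) and 92.4% (Il17a), whereas in Adult and Aged libraries NK cells held 65.9% and 72.4% of Gzma.

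Csf2 had a further source. In Adult libraries 47.9% of its 165 UMIs lay in gated cells that were neither Cd3-positive nor NK, 5 of 25 such cells holding 79 UMIs, and Cd3-positive cells held 18.2%. The libraries differed, with 38 of 66 UMIs in those cells in Adult 1, all in 1 cell, 11 of 61 in Adult 2 and 30 of 38 in Adult 3, while Cd3-positive cells held 1, 27 and 2, so that the order was turned in Adult 2. In Juvenile cortex the same gate held 64.4% of 118 Csf2 UMIs, which rested on Juvenile 4 (68 of 91), with 0 of 1, 0 of 13 and 8 of 13 in Juvenile 1 to 3. In Aged libraries 7 of 20 such cells held 20 Csf2 UMIs, and in EAE 0 of 60 held any, which allows a share of up to 5% of cells with a UMI. These cells were not the same kinds in each group. Those in T cell-like clusters numbered 1, 8 and 4 in Adult, 4 and 7 in Aged and 6 and 10 in EAE libraries, those in B lineage-like clusters 0, 3 and 6, 7 and 2, and 10 and 3, and those in monocyte/macrophage-like clusters 0, 2 and 1, 0 and 0, and 16 and 15, so the shares of the groups are given side by side and not compared. Among the 25 Adult cells 12 had a UMI of Gata3, 11 of Il1rl1 (the receptor of IL-33), 10 of Areg and 8 of Il2ra, and 8 and 6 had one of the type 2 cytokines Il13 and Il5, genes chosen after their values were seen. In EAE the corresponding numbers of 60 cells were 8 for Gata3, 2 for Il1rl1, 4 for Areg, 4 for Il2ra and 0 for Il13 and Il5. The cells were not given a name, since no list of markers for them had been set.

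Ifng (chromosome 10, 118441046 to 118445892, mm10) was detected in more Cd3-positive cells of each group than any other of the 9. A UMI of Ifng was found in 11 of 33, 5 of 30 and 8 of 30 Cd3-positive cells of the Adult libraries, in 62 of 164 (37.8%) and 43 of 130 (33.1%) of the Aged libraries, and in 249 of 827 (30.1%) and 214 of 750 (28.5%) of the EAE libraries. The level of Ifng in CPM was 351, 114 and 226 in Adult, 467 and 308 in Aged, and 289 and 295 in EAE. The Aged and Adult values overlapped and the EAE values lay below both Aged libraries. In edgeR's quasi-likelihood test on summed UMIs, Ifng passed neither for EAE against Aged (log2 fold change -0.43 ± 0.25 SE, adjusted p = 0.274) nor for EAE against Adult cells (0.21 ± 0.30, adjusted p = 0.693). Without Adult 1, and so against 1 Adult unit, the second difference was 0.86 (adjusted p = 0.0441), and without Adult 2 it was -0.0094. With each cell thinned to 1000 UMIs, 15.1% of the Cd3-positive cells had Ifng in each EAE library, against 26.7% and 19.5% in Aged libraries. Neither Aged library lay below an EAE library in either share.

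Tbx21 (chromosome 11, 97098071 to 97115331) passed in no comparison of all Cd3-positive cells between groups. It was detected in 5, 6 and 7 of the Adult Cd3-positive cells, in 20.7% and 17.7% of the Aged and in 23.2% and 23.1% of the EAE cells. Its level was 34.4, 93.4 and 79.0 CPM in Adult, 117 and 72.9 in Aged and 76.1 and 72.3 in EAE, and the groups overlapped. The log2 fold change of Tbx21 was -0.38 ± 0.25 for EAE against Aged (adjusted p = 0.327) and 0.23 ± 0.37 for EAE against Adult (adjusted p = 0.738).

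Il17a (chromosome 1, 20730905 to 20734496) was rare and carried by few cells. In Adult libraries 1 of 93 Cd3-positive cells held all 28 UMIs. In Aged libraries 7 and 6 cells held 30 and 97 UMIs of Il17a, 92 of the latter in 1 cell, and in EAE libraries 13 of 827 and 14 of 750 cells held 56 and 54. The level was higher in both Aged libraries (79.5 and 262 CPM) than in both EAE libraries (17.3 and 18.2), without overlap. The log2 fold change of EAE against Aged was -3.28 ± 0.84, which did not pass the test (adjusted p = 0.0810) but did without Adult 3 (-3.27, adjusted p = 0.0398).

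Csf2 (chromosome 11, 54247271 to 54249667) was detected in 61 (7.38%, 95% Clopper-Pearson interval 5.69% to 9.37%) and 43 (5.73%, 4.18% to 7.65%) of the EAE Cd3-positive cells, in 5 (3.05%, 0.997% to 6.97%) and 4 (3.08%, 0.845% to 7.69%) of the Aged and in 1, 2 and 2 of the Adult cells. These intervals cover counting error only. The summed level did not follow the shares, at 61.5 and 53.5 CPM in EAE, 103 and 51.3 in Aged and 6.89, 280 and 22.6 in Adult, and single cells held 25 of 27 UMIs in Adult 2, 18 of 39 in Aged 1 and 16 of 19 in Aged 2. The levels overlapped and Csf2 did not pass the test (EAE against Aged -0.45 ± 0.56, adjusted p = 0.648, EAE against Adult -0.64 ± 0.73, adjusted p = 0.623). Without Adult 1, and so against 1 Adult unit, the second difference was -1.39 (adjusted p = 0.0136), and without Adult 2 it was 2.18.

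Il2ra (chromosome 2, 11642807 to 11693193) was higher in EAE. It was detected in 19.1% (16.5% to 22.0%) and 16.9% (14.3% to 19.8%) of the EAE Cd3-positive cells, against 6.10% (2.96% to 10.9%) and 4.62% (1.71% to 9.78%) in Aged and 0 of 33, 3 of 30 and 2 of 30 in Adult libraries. The level of Il2ra was 76.1 and 76.0 CPM in EAE, 29.2 and 16.2 in Aged, and 0, 31.1 and 22.6 in Adult, and both EAE libraries lay above all others. Il2ra was 1.72 ± 0.36 (log2) higher than in Aged (adjusted p = 0.00983) and 2.32 ± 0.57 higher than in Adult cells (adjusted p = 0.0193). The first call was lost without Aged 1 (2.24, adjusted p = 0.0635), without Aged 2 (1.38, 0.160) and with a gate of 5 UMIs (7.59 ± 2.59, 0.0982), and the second without cells that held an NK-list UMI (1.73, 0.0664). After thinning to 1000 UMIs the shares were 5.12% and 4.96% in EAE and 1.86% and 3.13% in Aged libraries.

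Foxp3 (chromosome X, 7573644 to 7595245) was detected in 13 and 11 Cd3-positive cells of the EAE libraries with 17 and 19 UMIs (1.57% and 1.47% of the cells). In Aged libraries it was found in 0 of 164 and 1 of 130 cells. In Adult libraries 0 of 93 cells had Foxp3, which allows a share of up to 3.23% and so does not separate Adult from EAE. Foxp3 was too low to be tested in Cd3-positive cells.

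Gzma (chromosome 13, 113093825 to 113100981) and Gzmb (chromosome 14, 56258838 to 56262260) rose most in EAE against Aged cells. The level of Gzma was 1080 and 1164 CPM in EAE, 90.1 and 51.3 in Aged and 420, 706 and 519 in Adult Cd3-positive cells, and the 3 groups did not overlap. It was detected in 154 (18.6%) and 114 (15.2%) cells in EAE, 9 (5.49%) and 4 (3.08%) in Aged and 1, 2 and 5 in Adult libraries. Gzma was 3.96 ± 0.25 (log2) higher in EAE than in Aged cells (adjusted p = 5.34e-06) and 1.10 ± 0.21 higher than in Adult cells (adjusted p = 0.00623).

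Gzmb was detected in 25.8% (22.8% to 28.9%) and 22.7% (19.7% to 25.8%) of the EAE Cd3-positive cells, 9.76% (5.68% to 15.4%) and 10.0% (5.43% to 16.5%) of the Aged, and in 5, 3 and 6 of the Adult cells. The level of Gzmb was 364 and 307 CPM in EAE, 66.3 and 81.0 in Aged, and 317, 41.5 and 260 in Adult libraries. Both EAE libraries lay above both Aged libraries, while Adult 1 fell between the EAE libraries. Gzmb was 2.17 ± 0.28 (log2) higher in EAE than in Aged cells (adjusted p = 0.000563), and did not pass against Adult cells (0.58 ± 0.27, adjusted p = 0.177), but did against the 1 Adult unit left without Adult 1 (1.25, adjusted p = 0.00109), with no filter on low counts (0.92, adjusted p = 0.000465) and in cells without NK-list UMIs (2.62, adjusted p = 0.000428). In endothelial-like clusters, which should lack both genes, 2.33% and 1.25% of EAE cells had a UMI of Gzma and 0.849% and 0.594% one of Gzmb, at median depths of 2321 and 2393 UMIs against 3240 and 3224.5 in Cd3-positive cells.

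Prf1 (chromosome 10, 61297833 to 61304680) was near the limit of detection. It was found in 7 and 2 EAE, 1 and 1 Aged and 3, 0 and 0 Adult Cd3-positive cells, never with more than 1 UMI a cell, and could not be tested.

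Of the 7 members tested in Cd3-positive cells, 3 (Gzma, Gzmb and Il2ra) were called higher in EAE than in Aged cells and none lower, beside 15.2% of the 4950 genes tested that were called in either direction (7.80% higher, 7.39% lower). Against Adult cells 2 of 7 (Gzma and Il2ra) were called higher, beside 14.5% of all genes (6.65% higher, 7.86% lower). The median log2 fold change of the 7 was -0.38 against Aged and 0.23 against Adult cells, with medians of -0.01 and 0.00 over all genes. In the comparison of Aged with Adult cells, which was added after the data were seen, 1 of 7 was called, beside 0.485% of all genes (0.202% higher, 0.283% lower). Gzma was lower in Aged cells (-2.86 ± 0.28, adjusted p = 0.000739), a call that was lost without Aged 2 (-2.46, adjusted p = 0.0725) and with at least 2 Cd3 UMIs (-2.70, 0.589). Gzmb was -1.59 ± 0.35 (adjusted p = 0.0925) and passed with DESeq2 (-1.62, 0.0182), with no filter (-1.44, 0.000116) and without Adult 2, EAE 1 or EAE 2 (-1.95 to -1.53, 0.0156 to 0.0345). Ifng was 0.64 ± 0.31 (adjusted p = 0.381) and passed against the 1 Adult unit left without Adult 1 (1.25, 0.0183), with no filter (0.79, 0.0347) and in cells without NK-list UMIs (1.47, 0.0264), where Gzmb was 0.27 (0.865).

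**Figure D2:**
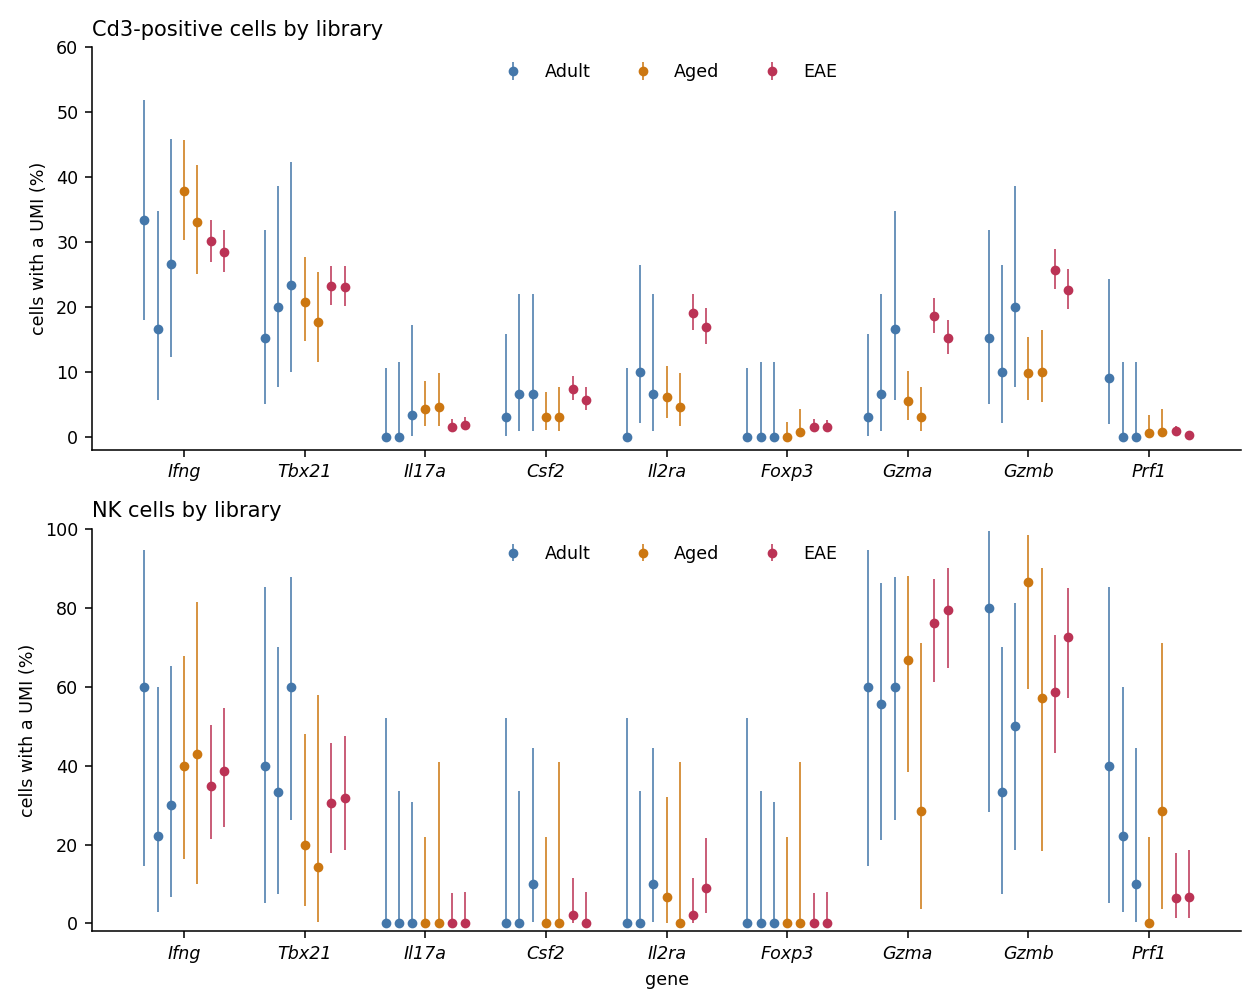
Percent of cells with at least 1 UMI of each gene (y axis) in Cd3-positive cells (upper panel) and NK cells (lower panel), a point per library with its 95% Clopper-Pearson interval. In Cd3-positive cells both EAE libraries were above both Aged libraries for Il2ra, Gzma, Gzmb, Csf2, Foxp3 and Tbx21 (17.7% to 23.2%). They were below both for Il17a and Ifng (28.5% to 37.8%). The shares were not thinned to equal depth.

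Cells with both Cd3 and NK-list transcripts mattered for the granzymes. They numbered 27 of 93 Cd3-positive cells in Adult, 39 of 294 in Aged and 176 of 1577 in EAE libraries. Of 175 Gzma UMIs in Adult Cd3-positive cells, 172 lay in those 27 cells. In Cd3-positive cells without any NK-list UMI the level of Gzma was 13.5 CPM in Adult, 13.7 in Aged and 732 in EAE libraries, and Gzma was 5.70 (log2) higher in EAE than in either, while Aged and Adult cells then differed by 0.0071 (adjusted p = 1.0). In the same cells Gzmb was 2.35 higher than in Aged and 2.62 higher than in Adult cells (adjusted p = 0.000428 for the latter). Ifng then was 1.0 higher in EAE (adjusted p = 0.0317) and 1.47 higher in Aged (adjusted p = 0.0264) than in Adult cells. Whether the cells with both kinds of transcript were NK-like T cells, NK cells or mixtures was not tested. With at least 2 Cd3 UMIs required, Gzma was 4.29 and 1.60 higher than in Aged and Adult cells but passed in neither comparison (adjusted p = 0.174 and 0.503).

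**Figure D3:**
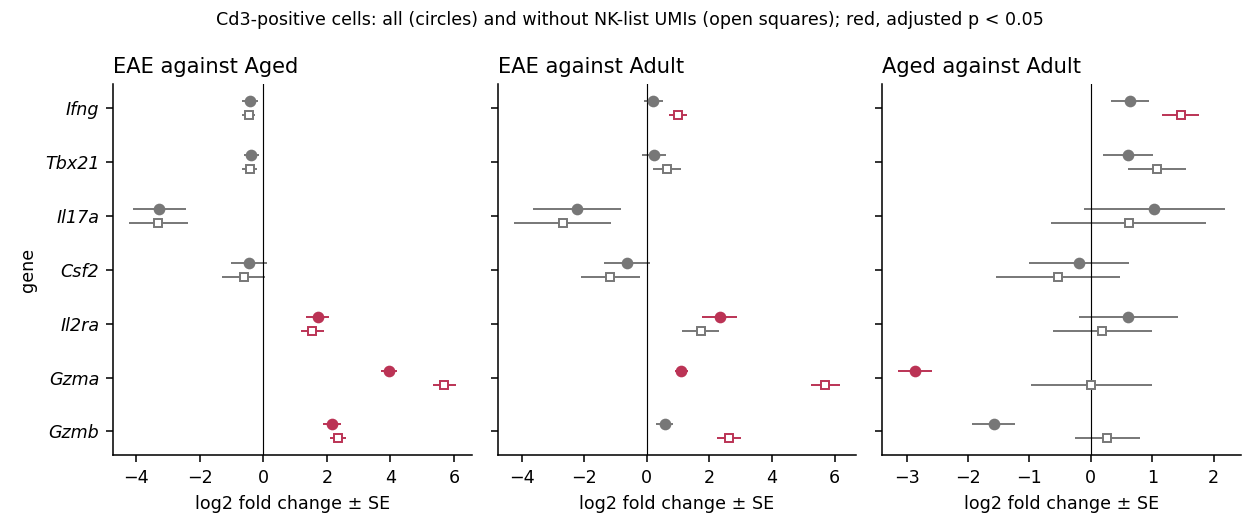
Log2 fold changes (x axis, ± SE) of the 7 tested genes in Cd3-positive cells for EAE against Aged, EAE against Adult and Aged against Adult, for all cells (circles) and for cells without NK-list UMIs (open squares), in red where the adjusted p was below 0.05. Gzma in EAE against Adult moved from 1.10 to 5.70 when cells with NK-list UMIs were left out, and in Aged against Adult from -2.86 to 0.0071.

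The promoters of Gzma and Gzmb are shown because these 2 genes were both higher in EAE than in Aged Cd3-positive cells and were found in the same cells. The sequences are the 250 bases before the RefSeq start (GRCm38.p6), both on the minus strand, Gzma at chr13:113100982-113101231 and Gzmb at chr14:56262335-56262584, and the capitals mark the letters TGTGGTT, a core Runx motif, read on either strand (AACCACA on the other):
Gzma: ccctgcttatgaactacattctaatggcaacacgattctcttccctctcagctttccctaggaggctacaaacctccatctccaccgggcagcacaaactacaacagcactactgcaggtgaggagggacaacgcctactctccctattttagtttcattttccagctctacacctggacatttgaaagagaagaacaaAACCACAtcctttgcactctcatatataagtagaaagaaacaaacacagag
Gzmb: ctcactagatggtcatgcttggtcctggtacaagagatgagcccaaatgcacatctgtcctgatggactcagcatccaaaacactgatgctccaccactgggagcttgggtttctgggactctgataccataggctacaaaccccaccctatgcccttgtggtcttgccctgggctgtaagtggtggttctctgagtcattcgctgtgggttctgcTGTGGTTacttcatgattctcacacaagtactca
The first base of the match was 51 bases before the start of Gzma and 34 before that of Gzmb. The RefSeq start of Gzmb lies upstream of its GENCODE M21 start (56262260), so the distance for Gzmb depends on the start chosen. Among 10 windows of the 9 genes these were the only matches, and 4.40% of 32851 promoter windows of the same length held one. The motif was chosen after the members were known, and a match is a description of letters. Of the other motifs searched on both strands, the T-box letters TCACACC were in none of the 10 windows (3.33% of all), the AP-1 letters TGANTCA in those of Il17a and Gzmb (6.75% of all), and the NFAT letters TGGAAA in those of Csf2, Gzma and Foxp3 (18.6% of all).

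In EAE the members differed between Cd4-positive and Cd8-positive T cells. Cd3-positive cells with a Cd4 UMI and no Cd8a or Cd8b1 UMI numbered 316 and 301 in the 2 libraries, and those with Cd8a or Cd8b1 and no Cd4 numbered 167 and 136. Csf2 was found in 39 (12.3%) and 25 (8.31%) Cd4-positive cells against 3 (1.80%) and 0 Cd8-positive cells. Il17a was found in 6 and 8 Cd4-positive cells and in 0 of 303 Cd8-positive cells, which allows a share of up to 0.990% of cells with a UMI and sets no limit on cells that express it. Il2ra was found in 26.6% and 20.3% of Cd4-positive and 10.2% and 10.3% of Cd8-positive cells. The granzymes lay on the other side. Gzmb was found in 73.1% and 70.6% of Cd8-positive against 11.4% and 11.0% of Cd4-positive cells, and Gzma in 53.9% and 46.3% against 11.1% and 6.64%. A further 627 of 1577 Cd3-positive cells had neither, among them 13 of the 27 Il17a-positive and 11 of the 24 Foxp3-positive cells. All 6 Prf1-positive cells of these 2 subsets were Cd8-positive. Foxp3 was found in 3 and 7 Cd4-positive cells and in 1 Cd8-positive cell.

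Of 7 members tested between the subsets with the library as a block, 5 were called, beside 11.6% of 7067 genes (5.42% higher and 6.18% lower in Cd8-positive cells). Cd8-positive cells had 3.40 ± 0.10 (log2) more Gzmb, and less Csf2 (-4.45 ± 0.38), Il2ra (-1.74 ± 0.23) and Ifng (-0.51 ± 0.11, adjusted p = 0.000156). Il17a was also called lower, with 58 UMIs in 14 of 617 Cd4-positive cells and 0 in 303 Cd8-positive cells. Several of these UMIs came from the same cells, so no lower bound on the fold is given. The level of Ifng in CPM was 324 and 378 in Cd4-positive and 263 and 198 in Cd8-positive cells, which did not overlap. Ifng was found in 113 of 316 and 101 of 301 Cd4-positive cells and in 52 of 167 and 48 of 136 Cd8-positive cells. These shares overlapped. The call was lost with DESeq2 (-0.52, adjusted p = 0.696) and without called doublets (-0.50, adjusted p = 0.0742), at about the same fold change. Gzma was 2.69 ± 0.32 higher in Cd8-positive cells and did not pass (adjusted p = 0.0756), although it passed with DESeq2 (1.07e-07) and in Cd3-positive cells without NK-list UMIs (2.92). Tbx21 did not pass (0.17 ± 0.19, adjusted p = 0.687). The fit had 1 residual degree of freedom and edgeR gave most genes a common spread, so their small p-values rest on spread borrowed from other genes. This did not hold for every gene: Gzma changed by more SE than Ifng, yet had the larger adjusted p.

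**Figure D4:**
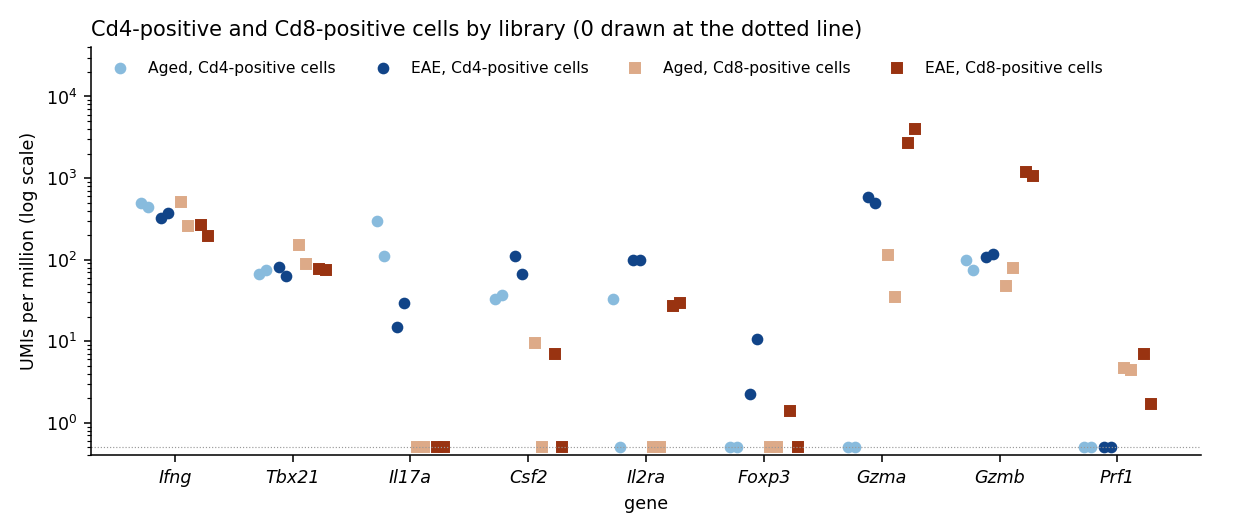
Level of each gene in CPM (log scale, 0 drawn at the dotted line) in Cd4-positive and Cd8-positive cells, a point per Aged and EAE library. Csf2 in EAE stood at 112 and 66.5 in Cd4-positive and 7.04 and 0 in Cd8-positive cells, and Gzmb at 108 and 118 in Cd4-positive and 1192 and 1068 in Cd8-positive cells.

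Since Cd8-positive cells outnumbered Cd4-positive cells in Aged libraries (90 and 74 against 11 and 10) but not in EAE, the groups were also compared within the subsets, a choice made after the data were seen. In Cd8-positive cells Gzma stood at 113 and 35.3 CPM in Aged and at 2695 and 4010 in EAE, and Gzmb at 47.1 and 79.5 against 1192 and 1068, without overlap. Of 4 members tested 3 were called, beside 19.1% of 3881 genes (10.2% higher, 8.97% lower). Gzma was 5.52 ± 0.34 (log2) higher (adjusted p = 5.13e-07) and Gzmb 4.15 ± 0.22 higher in EAE, while Ifng was lower (-0.71 ± 0.19, adjusted p = 0.00285). Tbx21 was -0.62 ± 0.27 (adjusted p = 0.0948) and passed against Aged 1 alone (-0.98, 0.0220). Of 8 cell cycle genes 5 were higher (median 1.62) and of 10 genes of the dissociation response 6 were lower (median -0.87, beside -0.01 over all genes), and their part in these differences was not tested. The level of Ifng was 504 CPM in Aged 1, 261 in Aged 2 and 263 and 198 in EAE, and without Aged 1 the change was -0.13 (adjusted p = 0.816). The call of Ifng was also lost with DESeq2 (-0.74, adjusted p = 0.359), no filter (-0.55, adjusted p = 0.0596) and without Adult 1 (-0.74, adjusted p = 0.0668). It was lost too with the gate of 5 UMIs (-0.48) and without EAE 2 (-0.55), where 1 arm had a single unit. With the gate of 5 UMIs Gzma stood at 2.53 and did not pass (adjusted p = 0.837). The fits within Cd8-positive and within Cd4-positive cells had 2 residual degrees of freedom and a common spread for most genes, so their p-values also rest on spread borrowed from other genes. Il2ra was found in 0 of 164 Aged and 31 of 303 EAE Cd8-positive cells, at least 4.07-fold more in EAE with 3 counts over the group for the zero.

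Only 21 Aged cells were Cd4-positive, with 0 UMIs of Gzma, against 1433 UMIs in 55 of 617 EAE cells. The zero allows a share of up to 14.3% of cells with a UMI, so by cells it does not separate Aged from EAE. In Cd4-positive cells Il17a was lower in EAE (-2.86 ± 0.66, adjusted p = 0.000707), with 12 UMIs in 4 of 21 Aged and 58 in 14 of 617 EAE cells. Without Aged 1 the call of Il17a was lost (-1.77, adjusted p = 0.580). Gzma and Il17a were the 2 members called of 7 tested, beside 4.49% of 5964 genes (3.54% higher, 0.956% lower), and neither passed with no filter on low counts (adjusted p = 0.223 and 0.752). Csf2 (1.73 ± 0.89), Il2ra (2.86 ± 1.04) and Ifng (-0.05 ± 0.30) did not pass, and the median gene stood at 0.39 in this comparison.

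NK cells had the granzymes and Ifng in all conditions, and Il17a and Csf2 in 0 and 2 cells. Gzma was found in 35 of 46 (76.1%) and 35 of 44 (79.5%) NK cells of EAE, in 10 of 15 and 2 of 7 of Aged, and in 3 of 5, 5 of 9 and 6 of 10 of Adult libraries. Its level was 6953 and 5656 CPM in EAE, 3299 and 3365 in Aged and 6122, 2145 and 11464 in Adult NK cells, with EAE above Aged and within the range of Adult libraries. Gzmb was found in 58.7% and 72.7% of EAE NK cells, at 700 and 760 CPM, below both Aged libraries (1060 and 1971), while Adult libraries ranged from 384 to 2422. Ifng was found in 34.8% and 38.6% of EAE NK cells, with 80 of 112 UMIs of EAE 1 in a single cell, and Tbx21 in 30.4% and 31.8%.

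Il17a and Foxp3 were found in 0 of 90 EAE NK cells, which allows a share of up to 3.33%, and in none of the Aged or Adult NK cells. Csf2 was found in 1 NK cell of EAE 1 and 1 of Adult 3, and Prf1 in 3 and 3 EAE, 0 and 2 Aged and 2, 2 and 1 Adult NK cells. Only Aged 1, the sum of Adult 2 and 3, and the EAE libraries held the 10 NK cells needed for the tests. The Aged and the Adult arm were thus 1 unit each, with 1 residual degree of freedom, from the EAE pair, and the lone units were assumed to vary like that pair. Of 4 members tested in EAE against Aged NK cells, Gzma was called (1.16 ± 0.18 higher than in the 1 Aged unit, adjusted p = 0.0177), beside 2.59% of 2392 genes (2.09% higher, 0.502% lower). Ifng was 1.83 ± 0.86 and did not pass, but did with no filter on low counts (2.05). This fit left out Aged 2, whose 7 NK cells held 9 of the 15 Ifng UMIs of Aged NK cells. In EAE against Adult NK cells 0 of 4 members were called by edgeR, beside 2.88% of all genes (2.34% higher, 0.543% lower), and 1 of 4 had an unadjusted p under 0.05. This was Ifng (2.63 ± 0.81), not called there but called with no filter on low counts. The fit left out Adult 1, whose 5 NK cells held 16 of the 22 Ifng UMIs of Adult NK cells. Gzma stood at 0.30 ± 0.16 (adjusted p = 0.427), and DESeq2, which gave an adjusted p for Gzma and Gzmb, called neither.

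Within the EAE libraries, 6 of 8 members tested differed between Cd3-positive and NK cells, beside 6.65% of 8535 genes (3.85% higher and 2.80% lower in Cd3-positive cells). Csf2 (3.32 ± 0.70, log2, adjusted p = 0.00212) and Il2ra (1.55 ± 0.42, adjusted p = 0.0194) were higher in Cd3-positive cells. Il17a was also called higher (adjusted p = 0.0496), with 110 UMIs in 27 of 1577 Cd3-positive cells. The zero in 90 NK cells allows a share of up to 3.33%, so by cells it does not separate the populations. Gzma (-2.47 ± 0.09), Gzmb (-1.10 ± 0.14) and Prf1 (-3.49 ± 0.80, adjusted p = 0.00493) were lower in Cd3-positive cells. The calls of Csf2 and Il2ra were lost with DESeq2 (3.43 and 1.53, adjusted p = 0.182 and 0.569), that of Il17a without called doublets (0.0553), and that of Prf1 with no filter on low counts (-3.36, 0.200). Ifng (-0.52 ± 0.28, adjusted p = 0.423) and Tbx21 (-0.74 ± 0.27, adjusted p = 0.109) did not pass. Over all units with both populations, 4 of 7 were called, beside 8.13% of 3136 genes (4.66% higher, 3.48% lower). These were Csf2 (3.61 ± 0.56) and Il17a higher and Gzma (-3.18 ± 0.40) and Gzmb (-1.91 ± 0.43, adjusted p = 0.0400) lower in Cd3-positive cells. This call of Gzmb was lost without Adult 3 (-1.76, adjusted p = 0.240) and with at least 2 Cd3 UMIs (-1.98, 0.0584).

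Among Cd3-positive cells, those with several of the 9 genes were more frequent in the EAE than in the Aged and Adult libraries, which did not hold for NK cells. Of Cd3-positive cells 39.5% and 32.7% of EAE cells had at least 2 of the 9 genes, against 23.8% and 13.1% of Aged and 21.2%, 16.7% and 26.7% of Adult cells, and at most 5 were found in 1 cell. None was found in 31.0% and 34.4% of EAE Cd3-positive cells. Of NK cells 69.6% and 75.0% in EAE had at least 2, against 80.0% and 57.1% in Aged and 80.0%, 55.6% and 70.0% in Adult libraries, and the groups overlapped. These shares rise with depth, and the median Cd3-positive cell had 3240 and 3224.5 UMIs in EAE, 2218 and 2602.5 in Aged and 2832.5 to 3616 in Adult libraries.

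The granzymes were often found together. Of Gzma-positive Cd3-positive cells 100 of 154 (64.9%, 56.8% to 72.4%) in EAE 1 and 76 of 114 (66.7%, 57.2% to 75.2%) in EAE 2 had Gzmb, against 16.8% and 14.8% of Gzma-negative cells. After thinning to 1000 UMIs the shares were 49.5% and 54.4% against 8.04% and 9.0%. The pairing was also seen in Cd8-positive cells of both libraries, where 140 of 153 Gzma-positive cells (91.5%) had Gzmb, against 52.0% of the others. In Cd4-positive cells 11 of 55 (20%, 10.4% to 33.0%) had it against 10.3%, just below that interval, so the difference there is borderline. All 9 Prf1-positive Cd3-positive cells and all 6 Prf1-positive NK cells of EAE libraries had Gzmb.

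The helper genes showed another grouping. Il2ra was found in 42.6% (30.0% to 55.9%) and 39.5% (25% to 55.6%) of Csf2-positive Cd3-positive cells of EAE 1 and EAE 2, against 17.2% and 15.6% of Csf2-negative cells. Within Cd4-positive cells of both libraries the shares were 43.8% against 21.2%. Csf2 itself was found in 11.6% and 10.7% of Ifng-positive and 5.54% and 3.73% of Ifng-negative cells, and within Cd4-positive cells in 16.8% against 6.95%. Gzmb was found in only 6 of 61 and 1 of 43 Csf2-positive cells (9.84% and 2.33%), against 27.0% and 23.9% of the others, and within Cd4-positive cells in 3 of 64 (4.69%) against 11.9%, which lies within the interval of the former (0.977% to 13.1%) and is not resolved. Tbx21 was found in 34.1% and 31.8% of Ifng-positive and 18.5% and 19.6% of Ifng-negative cells. After thinning, Tbx21 was found in 13.7% and 11.5% of Ifng-positive against 5.75% and 6.95% of Ifng-negative cells. Only 27 and 21 cells were then Csf2-positive. Il2ra was found in 14.8% and 9.52% of these, against 4.79% and 4.83% of Csf2-negative cells. Gzmb was found in none of them, against 14.1% and 14.2%, and so few cells set only a loose limit.

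**Figure D5:**
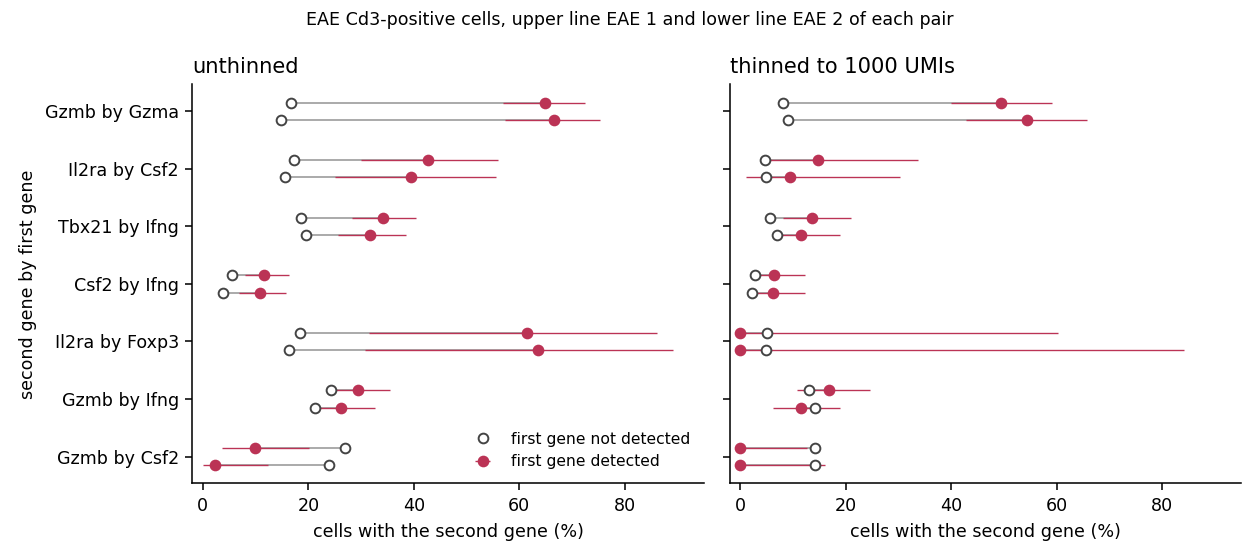
Percent of EAE Cd3-positive cells with a second gene (x axis) among cells with (filled, 95% Clopper-Pearson interval) and without (open) a UMI of a first gene, in each EAE library, without thinning (left) and thinned to 1000 UMIs (right). The pair of Gzmb and Gzma stood farthest apart (64.9% and 66.7% against 16.8% and 14.8%), and Gzmb was found in 9.84% and 2.33% of cells with Csf2 against 27.0% and 23.9% without, a difference not resolved within Cd4-positive cells.

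Some pairs were seldom seen. Of 27 Il17a-positive EAE Cd3-positive cells 1 had Ifng (3.70% against 29.8% of Il17a-negative cells), and 1 had Csf2 (3.70%, 0.0937% to 19.0%, against 6.65%), a difference that so few cells do not resolve. None of the 24 Foxp3-positive cells had Ifng. In the Aged libraries 1 of 13 Il17a-positive cells had Ifng, while 28 of 105 Ifng-positive cells had Tbx21 (26.7% against 15.3% of Ifng-negative cells). Foxp3-positive cells of EAE 1 and EAE 2 had Il2ra in 8 of 13 and 7 of 11 cells, against 18.4% and 16.2% of the others, and Gzmb in 3 of 13 and 8 of 11, against 25.8% and 21.9%. The 24 Foxp3-positive cells were deep, with a median of 5692.5 UMIs against 3231 for all EAE Cd3-positive cells, so other genes were easier to detect in them.

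Other genes of the same cells are given as percentages of member-positive and member-negative Cd3-positive cells of both EAE libraries. No rule set beforehand named these genes, and the shares were not thinned to equal depth. Foxp3-positive cells had Ikzf2 (Helios) in 91.7% against 6.25%, Ctla4 in 91.7% against 32.3%, Lrrc32 in 41.7% against 0.966%, and the chemokine receptor Cxcr6 in 8.33% against 72.0%. Il17a-positive cells had Tmem176b in 85.2% against 26.3% and the IL-1 receptor Il1r1 in 33.3% against 5.29%. In Aged libraries the 13 Il17a-positive cells had Il17f in 46.2% against 0%, the γδ T cell gene Tcrg-C1 in 30.8% against 4.27%, and Cxcr6 in 100% against 52.3%. Aged Il2ra-positive cells (16) also had Tcrg-C1 more often, in 37.5% against 3.60%.

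Csf2-positive EAE cells (104) had the costimulatory receptor Tnfrsf4 (OX40) in 79.8% against 44.1%, Bhlhe40, a transcription factor needed for GM-CSF production, in 91.3% against 72.9%, and Ifng in 50% against 27.9%. Gzmb-positive cells (383) had Cd8b1 in 56.7% against 7.96% and Gzmk in 54.8% against 11.0%. Il2ra-positive cells (285) had Tnfrsf4 in 75.4% against 40% and Top2a, a gene of dividing cells, in 29.5% against 16.3%. The rule for likeness ranked 2236 genes in Cd3-positive and NK cells by the difference in share after thinning, in the EAE library where it was smaller. By this rule Gzma was most like Gzmb (50% and 56.4% against 7.99% and 9.41%), followed by Ccl5 and Nkg7, although Ccl5 stood farther apart in EAE 1. Ifng was most like Nkg7, at 74.4% and 71.7% in Ifng-positive against 55.8% and 53.1% in Ifng-negative cells. Csf2 was most like Bcl2a1b, at 77.8% and 76.2% against 44.7% and 44.1%, although Tnfrsf4 stood farther apart in EAE 1 and Jund in EAE 2. Tbx21 had no gene as close, with Cd82 first at 38.7% and 42.9% against 27.9% and 28.9%.

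The other genes of these pathways were called in both directions in Cd3-positive cells. Of 13 cytotoxic genes tested besides the members, 3 were higher and 5 lower in EAE than in Aged cells: Serpinb6b, an inhibitor of granule proteases, rose by 1.89 on the log2 scale, while Gzmk fell by 1.49 and Gzmm by 1.64, in the opposite direction to Gzma and Gzmb. The list counts of EAE against Aged cells stand beside 7.80% of all genes called higher and 7.39% lower, and a single gene called in a list of 8 to 11 lies near those shares. Of 6 genes of regulatory T cells 4 were higher and none lower, led by Tnfrsf4 (4.02 ± 0.26), Tnfrsf9 (2.82) and Tnfrsf18 (1.12), receptors that activated T cells also carry. Of 8 Th17 genes 2 were higher and 1 lower, Il17f falling by 4.67 and Batf rising by 1.76. Of 11 Th1 genes 2 were higher (Il18rap 2.88, Il12rb2 2.17) and 1 lower (Cxcr3, -1.22), and of 9 genes of IL-2 and GM-CSF signalling 1 was higher (Stat5a, 1.85) and 1 lower (Socs3, -1.15). The medians of these lists were -0.13, 0.90, 0.42, 0.19 and 0.11, beside -0.01 for all genes. Of 8 cell cycle genes 4 were higher, such as Mki67 (2.70), and of 10 genes of the dissociation response 3 were lower, such as Jun (-1.23). The summed level of the dissociation list was 4103 and 4339 CPM in EAE, 7647 to 9484 in Aged and 7487 to 11052 in Adult Cd3-positive cells, and its part in the differences of the members was not tested.

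Against Adult cells, beside 6.65% of all genes called higher and 7.86% lower, 6 of 9 genes of naive and resident T cells were lower in EAE and 1 higher (median -1.20), such as Ccr7 (-2.87 ± 0.23), and 6 of 10 genes of the dissociation response were lower (median -1.21), such as Fos (-1.55 ± 0.16), beside a median of -0.0044 over all genes. Of 13 cytotoxic genes 3 were higher and 2 lower, and of 6 genes of regulatory T cells 3 were higher. Gzmk was higher in EAE (1.62 ± 0.25), Gzmm lower (-3.20 ± 0.48) and Tnfrsf4 higher (3.86 ± 0.31). Between the subsets in EAE, beside 5.42% of all genes called higher and 6.18% lower, the lists differed in direction. Of 13 cytotoxic genes 8 were higher and none lower in Cd8-positive cells, led by Gzmk (3.20 ± 0.12), whereas of 7 Th17 genes 6 and of 7 genes of regulatory T cells 4 were lower, such as Maf (-1.67) and Tnfrsf4 (-3.41). Of 12 Th1 genes 2 were higher and 6 lower, and of 10 genes of the dissociation response 4 were lower and none higher. The medians of these 5 lists were 0.60, -1.06, -0.54, -0.49 and -0.34 beside 0.01 over all genes, and the part of the dissociation response in the subset differences was not tested.

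In the whole cortex preparation, over all kept cells, 6 of 8 members tested were higher in EAE than in Adult libraries, beside 34.8% of 17513 genes called in either direction (18.8% higher, 16.1% lower). After TMM scaling Ifng stood at 38.1 and 34.5 CPM in EAE against 6.56 and 2.22 in the Adult units (3.09 ± 0.55, adjusted p = 0.00305). Il2ra (3.13 ± 0.38), Tbx21 (3.48 ± 0.70), Gzma (3.17 ± 0.72), Gzmb (2.96 ± 0.81) and Foxp3 (4.77 ± 1.12) were also higher, the last 2 not without either EAE library (adjusted p = 0.0513 to 0.107). Csf2 (0.91 ± 1.01, adjusted p = 0.508) and Il17a (1.83 ± 1.03, adjusted p = 0.218) did not pass, but Il17a did without Adult 3 (8.34, adjusted p = 0.0116), where the only Adult UMIs of Il17a lay. More T cells and more transcripts per T cell cannot be told apart in these sums. The share of Cd3-positive cells was 9.60% in EAE and 0.909% in Adult units.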

How the data were processed

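Per the submitters' processing notes, the authors processed reads with bcl2fastq 2.19.1.403, UMI-tools 0.5.3, STAR 2.5.3a (mm10) and featureCounts 1.6.1, although the study's methods name later versions of the last 3, and deposited raw UMI counts for every gene and barcode. The 11 libraries held 2787 to 8525 barcodes and 15755504 to 34326349 UMIs, and 50625 barcodes were kept as cells. Summed UMIs of each population, in units of no fewer than 10 cells, entered edgeR 4.0.16 (R 4.3.3, TMM, filterByExpr, robust quasi-likelihood test, Benjamini-Hochberg over all genes tested, calls at 0.05), with DESeq2 1.42.0, RLE scaling, no filter, other gates, doublet removal and libraries left out as alternatives. Levels are CPM of a population, and shares carry 95% Clopper-Pearson intervals. Scrublet (scanpy 1.11.5) marked only 4 and 5 cells in the Aged libraries, so doublet removal hardly changed these. Whether it missed doublets there was not tested. Adult 2 and Adult 3 were 1 unit. The test was also run on simulated counts, with results not given here. Named by rule were all members, up to 3 called genes of each list with the largest change, and the genes most like a member. The last rule needed 20 positive cells in each EAE library, which Foxp3 and Il17a lacked. Other genes given for member-positive cells were outside these rules. Members, lists and gates were chosen with earlier results of these data known. Gene positions are from GENCODE M21.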

Additional observations from a re-analysis of the deposited data

Results flagged for a closer look

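The levels of Gzmb are listed here because both EAE libraries stood on opposite sides of the Aged libraries in the 2 populations. In NK cells the mean over EAE libraries was 786 CPM lower than over Aged libraries (-786), and in Cd3-positive cells it was 262 CPM higher. Every EAE library lay below every Aged library in NK cells and above in Cd3-positive cells. The difference between the populations was not tested, and the Aged NK values rest on 15 and 7 cells. In NK cells Gzmb was not called for EAE against Aged 1, the only Aged unit tested.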

How the results depend on the processing

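All p-values compare libraries of unknown independence, with 2 units a group in Cd3-positive cells and a single Aged and a single Adult unit in NK cells, and depth limits the rare genes Foxp3, Prf1 and Il17a. Genes called in Cd3-positive cells numbered 752 for EAE against Aged, 718 for EAE against Adult and 24 for Aged against Adult, and in NK cells 62 for EAE against Aged and 69 for EAE against Adult. Without a filter on low counts these became 1271, 1356, 192, 147 and 133. A gate of 5 UMIs gave 119 for the first. For Aged against Adult DESeq2 gave 58 and cells without NK-list UMIs 62. In NK cells RLE scaling gave 108 and 110, and cells in T or NK clusters 118 and 120. Cd3-positive against NK cells gave 568 in EAE (160 with DESeq2) and 255 in all libraries (488 without a filter). Cd8-positive against Cd4-positive cells gave 820 (103 with DESeq2, 138 with the gate of 5 UMIs, 421 without doublets). EAE against Aged gave 743 in Cd8-positive cells (126 with DESeq2, 20 with the gate of 5 UMIs) and 268 in Cd4-positive cells (0 without a filter, 124 with DESeq2).

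Leaving out 1 library at a time gave 154 to 1336, 339 to 776 and 1 to 167 calls for the 3 Cd3-positive comparisons, 54 to 103 and 68 to 119 for NK cells, 118 to 372 for Cd3-positive against NK cells in all libraries, 343 to 743 and 24 to 268 for EAE against Aged in Cd8-positive and Cd4-positive cells, and 2801 to 6121 for whole libraries. Those extremes for EAE against Aged came without Aged 2 and without Adult 1. Log2 fold changes that crossed 0 on leaving out 1 library ranged, for EAE against Aged, from -0.84 to 0.18 (Csf2) and -0.65 to 0.044 (Tbx21), and for EAE against Adult from -0.0094 to 0.86 (Ifng), -3.03 to 7.42 (Il17a), -1.39 to 2.18 (Csf2) and -0.17 to 0.55 (Tbx21). For Aged against Adult they ranged from -0.0078 to 10.69 (Il17a), -0.97 to 2.62 (Csf2) and -0.21 to 1.43 (Il2ra), for NK cells of EAE against Adult from -0.43 to 0.29 (Tbx21), -0.65 to 0.32 (Gzma) and -0.60 to 0.19 (Gzmb), for Cd3-positive against NK cells in all libraries from -0.26 to 0.86 (Ifng), and for Cd4-positive cells from -0.61 to 0.22 (Ifng).

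Other settings turned the sign of Csf2 for EAE against Aged (6.80 with the gate of 5 UMIs, 0.13 with at least 2 Cd3 UMIs), of Gzma (0.0071) and Gzmb (0.27) for Aged against Adult and of Ifng for Cd3-positive against NK cells (-0.026) without NK-list cells, and of Ifng in Cd4-positive cells without a filter (0.17). With Adult 2 and 3 separate, NK cells of EAE against Adult gave -0.43 for Tbx21, -0.65 for Gzma and -0.60 for Gzmb. The causes were not tested.

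With the replicate number as a block and Adult 2 and 3 separate, Aged against Adult gave 72 calls, EAE against Aged in Cd4-positive cells 150, and Il17a for EAE against Adult 7.19 (adjusted p = 0.247). The block also brought Il17a past the threshold for EAE against Aged (-3.14, adjusted p = 0.000295), Aged against Adult (10.33, 0.0341) and whole libraries (7.30, 0.0155), and no other call of a member in these comparisons was gained or lost with it. No other count moved by over 1.5 times with the block. Deviations of same-numbered libraries correlated at -0.121 to 0.030 in Cd3-positive cells and whole libraries, and the numbers were not taken to pair them. In NK cells the block could not be fitted, nor could the comparisons within EAE without either EAE library, NK cells of EAE against Aged without Aged 1, EAE 1 or EAE 2, and of EAE against Adult without Adult 3, EAE 1 or EAE 2.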
